A study of Mus musculus with 30 samples.

Results

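Processed pseudogenes are copies of spliced messenger RNAs that were reverse transcribed and inserted elsewhere in the genome. In the ovary table they made up 7733 of 50600 rows, 1863 of them with a value above 0 in some ovary. The 52 rows annotated as processed pseudogene with a mean of at least 5 normalized counts over 30 ovaries are described here. A normalized count is a read count divided by a size factor of its library. The members were thus chosen by their mean level over all ovaries, so levels are given as a description with no test. The members just above the limit were Zfp389 (5.01), Gm42164 (5.12) and Gm14239 (5.33), and the rows just below it were RP23-134M7.3 (4.91), Rpl14-ps1 (4.87) and Gm10243 (4.86). All 52 entered every test, since the same mean was the filter on low values.

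Because the inserted copy carries no promoter of its own, most processed pseudogenes are silent, and those with reads usually sit near or inside another transcript or beside a promoter that happens to lie upstream. Highly expressed housekeeping genes, above all those for ribosomal proteins, have left the most copies in mammalian genomes. A young copy can be almost identical to its parent gene, and reads of the parent may then be assigned to the copy and the reverse.

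The ovaries came from C57BL/6 mice. 7 females drank 3% dextran sulfate sodium (DSS), a polymer that injures the colon lining, for 7 days while sexually immature, and 8 littermates were controls. The left and the right ovary of each mouse were taken after sexual maturity and sequenced apart, which gives 7 DSS left, 7 DSS right, 8 control left and 8 control right libraries. CEL-Seq, which reads the 3' end of polyadenylated RNA, was run on total RNA with a mixture of 3 barcoded primers per ovary. No genetic change is named in the labels.

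The libraries held 3095386 to 8564770 reads. The summed level of 11 ovarian markers was 23677 to 37601 normalized counts in 29 ovaries and 9872 in the left ovary of mouse DSS_11.2. In 7 ovaries of 6 mice the oviduct gene Ovgp1 exceeded 5000. These were 3 DSS left, 1 DSS right and 3 control right ovaries. In whole ovaries, fewer cells of a type and less RNA per cell cannot be told apart.

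The printed stretches below show how close the best expressed copies are to their parents at the 3' end of the coding sequence, the part nearest to what CEL-Seq reads. Each is the stretch aligned to the last 60 coding bases of the parent, 5′ to 3′ on the transcript strand, from GENCODE M21 transcripts (GRCm38), and positions are on that genome. Capitals mark bases that differ from the aligned parent base. The parent is printed first, in lower case. RP23-58B7.2 (chr10:116972766-116973208, minus strand) is a copy of Rps15 outside any other annotated gene. Gm8292 (chr1:55335401-55335796, plus strand) is a copy of Rps24 that lies antisense to Boll.
Rps15: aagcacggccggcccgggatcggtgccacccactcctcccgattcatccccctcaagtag
RP23-58B7.2: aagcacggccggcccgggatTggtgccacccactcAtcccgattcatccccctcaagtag
Rps24: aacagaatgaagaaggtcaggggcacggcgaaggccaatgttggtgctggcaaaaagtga
Gm8292: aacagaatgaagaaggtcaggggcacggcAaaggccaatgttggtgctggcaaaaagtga

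The copies of Rpl35a show the range of divergence among the better expressed members. Rpl35a-ps4 (chr2:108874926-108875258, minus strand) had no difference from Rpl35a in this window. RP24-550H10.4 (chr10:62761751-62762079, plus strand, antisense to Ccar1) had 3 and Gm15268 (chrX:141627959-141628468, plus strand, inside Col4a5 on the same strand) had 4, besides 3 missing bases. The stretch of Gm15268 covers 53 of the 60 parent bases, since it also ends before the stop codon.
Rpl35a: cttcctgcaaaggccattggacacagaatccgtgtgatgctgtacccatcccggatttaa
Rpl35a-ps4: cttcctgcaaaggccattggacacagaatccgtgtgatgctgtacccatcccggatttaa
RP24-550H10.4: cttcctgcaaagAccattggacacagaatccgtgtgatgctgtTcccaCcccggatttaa
Gm15268: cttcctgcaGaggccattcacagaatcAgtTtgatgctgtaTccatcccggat

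The copies of Rpl21 are printed because 2 of them, Gm43028 and Rpl21-ps5, were among the members that varied most between ovaries. Gm10240 (chr15:68309819-68310301, plus strand), Gm16416 (chr13:103397109-103397591, plus strand), Rpl21-ps5 (chr16:83371251-83371733, minus strand) and Gm43028 (chr5:67988527-67989007, minus strand) overlap no other annotated gene. Rpl21-ps5 and Gm43028 each differ from Rpl21 at 2 of the aligned bases.
Rpl21: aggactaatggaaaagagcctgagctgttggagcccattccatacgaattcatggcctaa
Gm10240: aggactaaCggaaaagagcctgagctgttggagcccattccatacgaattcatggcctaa
Gm16416: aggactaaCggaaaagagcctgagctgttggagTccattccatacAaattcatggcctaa
Rpl21-ps5: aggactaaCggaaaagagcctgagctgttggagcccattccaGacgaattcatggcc
Gm43028: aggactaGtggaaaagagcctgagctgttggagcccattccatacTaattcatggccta

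Gm42164 (chr5:88210659-88211037, plus strand) is printed because it was the member most often at 0. Its best match was Smr2, a gene for a submaxillary gland secretory protein on the same strand of chromosome 5, 102 kb upstream. The match was 78.2% identical and spanned no exon junction. The printed stretch covers 56 of the 60 parent bases, with 1 missing base inside it that is not marked.
Smr2: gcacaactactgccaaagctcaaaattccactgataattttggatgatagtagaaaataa
Gm42164: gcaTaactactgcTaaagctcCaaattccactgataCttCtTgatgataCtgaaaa

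The members were low and uneven in level, and their sum was steady. Together they held 7439 ± 614 normalized counts per ovary (SD, n = 30), which was 0.17% of all. RP23-58B7.2, the copy of the small subunit protein gene Rps15, supplied 64.1% of that sum and the 10 highest members 92.4%. RP23-58B7.2 ranged from 3756 to 5547 over the 30 ovaries, Gm8292 from 595 to 1178 and Rpl35a-ps4 from 271 to 426. Next in order were Rpl10a-ps1 with a mean of 243, Gm10240 with 183 and Gm15268 with 136. Then came RP24-550H10.4 (88.2), Gm16416 (77.6), Rpl21-ps5 (76.0) and Rps12l1 (45.8). The means of RP24-550H10.4, Gm16416 and Rpl21-ps5 differ by less than the spread of each over ovaries. In all, 6 members averaged 100 or more, 22 from 10 to 100 and 24 under 10.

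**Figure D1:**
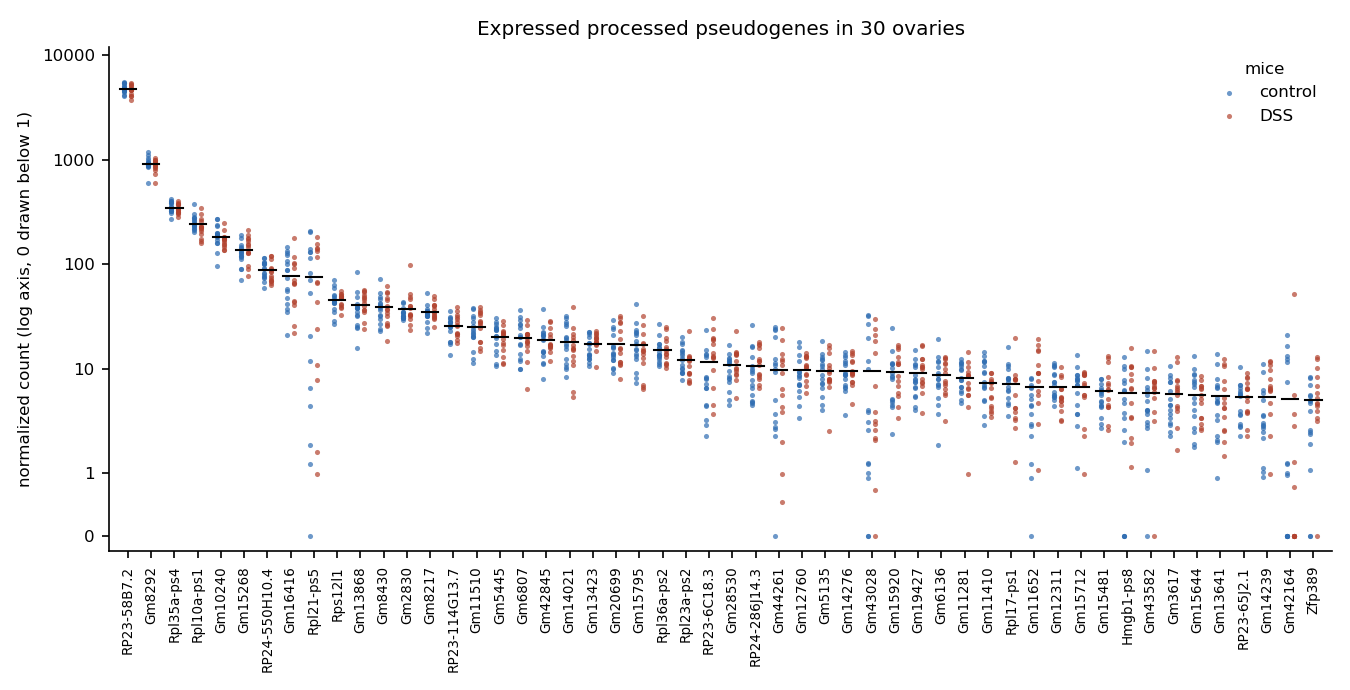
Normalized counts of the 52 members in each of 30 ovaries on a log axis, ordered by mean (black bar), with control ovaries in blue and DSS ovaries in red and values of 0 drawn below 1. RP23-58B7.2 lies between 3756 and 5547 in every ovary, while Rpl21-ps5, Gm43028 and Gm42164 spread from 0 to 209, 32.6 and 52.2.

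Of the 52 members, 44 were above 0 in every ovary. A value of 0 allows up to 3 reads, which is 1.59 to 3.98 normalized counts depending on the library, for counting error only. The ratio of the highest to the lowest ovary was 1.48 for RP23-58B7.2 and 1.98 for Gm8292, against a median of 4.63 over the 44 members without a 0.

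Parents were found by alignment to protein-coding transcripts for 50 of the 51 members with a sequence. Cytosolic ribosomal proteins were the parents of 37 members (72.5%), against 25.8% over all processed pseudogenes of the table and 51.1% over those with a value above 0. The next largest sets were copies of Rpl21 with 9 members of 117 processed pseudogenes, Rps7 with 5 of 28, Rpl35a with 4 of 45 and Rpl17 with 3 of 77. Rpl23a, Rpl6 and Rps24 had 2 members each. The 13 other parents included Npm1, a nucleolar histone chaperone, Hmgb1, a chromatin protein, Ndufa12, a subunit of respiratory complex I, and Bzw1, a regulator of translation initiation. In 2 members the best match was a mitochondrial gene: Gm11410 matched mt-Cytb and RP23-6C18.3 matched mt-Nd2.

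The members were closer to their parents than most processed pseudogenes. The median identity was 95.02%, against 88.8% over all processed pseudogenes, and 26 members (51.0%) were at least 95% identical against 22.5%. Over the processed pseudogenes with a value above 0, the median was 91.0% and the share 29.1%. Rpl10a-ps1, Rps12l1, Rpl36a-ps2 and the short fragment Gm42845, a copy of Rps7, were 100% identical over the aligned bases. The match crossed 1 to 10 exon junctions of the parent in 46 members. Matches that crossed a junction were preferred when parents were chosen, so this count was favoured by the choice and is no evidence of a spliced template. For 6 members every stretch of 50 bases was also found in a transcript from another place in the genome, and for 13 no such stretch was shared. A read of 50 bases from any of the 6 would match more than 1 place. How reads with several matches were counted is not given in the sources used here.

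More members than other processed pseudogenes lay within a gene. An annotated gene on the same strand overlapped 16 members (31.4%), against 12.0% of all processed pseudogenes, and 23 (45.1%) overlapped no gene, against 69.8%. Over the processed pseudogenes with a value above 0, these shares were 17.6% and 60.5%. In 15 of the 16 members the overlapping gene itself averaged at least 5, and in 14 it was higher than the member. Gm11510, a copy of Rpl35a inside Msi2, averaged 25.4 where Msi2 averaged 2860. Gm15712, a copy of Rpl3 inside Zbtb20, averaged 6.65 where Zbtb20 averaged 2403. The members above the gene around them were Gm15268, with 136 where Col4a5 averaged 47.6, and the Rpl17 copy Gm15795, with 16.92 where Pkhd1 averaged 2.30. Reads of the overlapping gene and of the member cannot be told apart there. A run of at least 10 A, where an oligo-dT primer can start inside a transcript, was found in 3 members (5.88%), against 3.35% of all processed pseudogenes and 7.59% of those with a value above 0, and 1 of the 3, the Npm1 copy Gm13423, held a run of 29.

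The symbol names the parent for 7 members, and these are given first. Rpl10a-ps1 stood at 7.50% of the level of Rpl10a and Rpl35a-ps4 at 6.10% of Rpl35a, both large subunit proteins of the ribosome. The other 5 were under 1%: Rpl21-ps5 at 0.35%, Rpl36a-ps2 at 0.323%, Rpl23a-ps2 at 0.116%, Hmgb1-ps8 at 0.0811% and Rpl17-ps1 at 0.0351%. These percentages divide normalized counts, which for 3' tags count transcript ends and were not divided by length.

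With parents found by alignment, a choice added after the data were seen, the median over 50 pairs was 0.328% and 35 pairs were under 1%. In 4 pairs the pseudogene was at 10% of its parent or more. RP23-58B7.2 averaged 4767 ± 467 where Rps15 averaged 8352 ± 920 (SD, n = 30), a share of 47.1% to 68.8% in every ovary. Gm8292 averaged 907 ± 121 where Rps24 averaged 1266 ± 139, a share of 47.6% to 91.2%. The third was Gm14021, a diverged copy inside Frmd5, which averaged 17.98 where Sept2, a septin of the cytoskeleton, averaged 13.3. A second row named for the same septin, at nearly the same position, was listed at 0 in every ovary, and its part in this ratio was not tested. The fourth was Gm42164 with 5.12 where Smr2 averaged 6.196. For 24 of 30 protein-coding parents the deposited interval ran exactly 300 bases past the annotated 3' end, and it did so for 0 of 51 members.

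**Figure D2:**
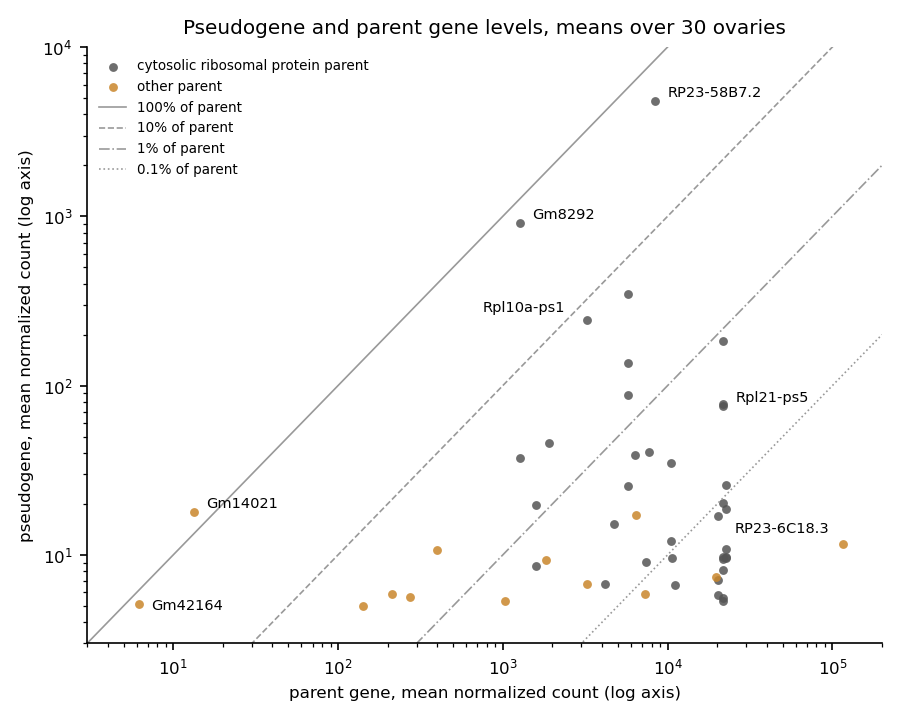
Mean normalized count of each pseudogene against that of its parent by alignment, both on log axes, for 50 pairs, with lines at 100%, 10%, 1% and 0.1% of the parent. RP23-58B7.2, Gm8292, Gm42164 and Gm14021 lie above the 10% line and 35 of the pairs lie under the 1% line.

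The parents were steadier than most of the copies. The coefficient of variation (CV) over 30 ovaries was higher in the pseudogene than in the parent in 49 of 50 pairs, with medians of 37.2% and 9.81%. Low counts raise the CV of the copies. After the variance expected from counting was taken off, the members had a median CV of 23.8%. It was 15.2% over all 14646 genes with a mean of at least 5 and 10.1% over the parents. These sets are not at like levels, since 10885 of the 14646 genes but 17 of the 52 members averaged at least 20. Highest among the members were Gm42164 (202%), Gm43028 (109%), Rpl21-ps5 (89.2%) and Gm44261, a fragment copied from Rps7 (73.2%). RP23-58B7.2 (9.68%), Rpl35a-ps4 (9.73%), Gm8217 (9.61%) and Gm11281 (4.45%) were as steady as the parents. In Gm13423, Gm14276, Gm12311 and RP23-65J2.1 no variance beyond counting was left (0%).

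The Rpl21 copies were mixed in this, within a single family of near-identical sequences. After counting variance was taken off, the CV was 109% for Gm43028, 89.2% for Rpl21-ps5, 50.7% for Gm16416 and 45.6% for Gm13641. It was 20.5% for Gm10240, 17.1% for Gm5445, 15.9% for Gm12760, 4.45% for Gm11281 and 0% for RP23-65J2.1. Rpl21 itself ranged from 17993 to 25535. Gm10240, 99.6% identical to it, ranged from 95.5 to 273.1, Gm16416 from 21.2 to 181 and Rpl21-ps5 from 0 to 209. The sum of the 9 copies was 395 ± 90.9 (SD, n = 30), a CV of 23.0%. The copies were 92.3% to 98.5% identical to each other.

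The 5 copies of Rps7, a small subunit protein of the ribosome, summed to 74.9 ± 16.02 (SD, n = 30) where Rps7 averaged 22736. They were RP23-114G13.7 (25.9), Gm42845 (18.7), Gm28530 (10.8), Gm44261 (9.76) and Gm5135 (9.64), with identities to Rps7 from 88.4% to 100%. The second Rps24 copy, Gm2830, was 96.1% identical to Rps24, close to the 97.2% of Gm8292, and stood at 2.95% of Rps24 with a mean of 37.3. Its highest value, 98.1, was in the left ovary of DSS_11.2, and the next was 52.1. The 2 copies of Rpl6, Gm6807 (19.8) and Gm6136 (8.65), stood at 1.25% and 0.546% of Rpl6, and both were highest in the left ovary of control_11.4. The 3 copies of Rpl17 summed to 29.8 ± 9.61 (SD, n = 30). The 15 members without a ribosomal protein parent summed to 137 ± 19.6 (SD, n = 30), or 0.00314% of all normalized counts.

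An on-off pattern was called where at least 3 ovaries held 0 reads and at least 3 held 10 or more normalized counts. It was met by 4 of 52 members, Gm42164, Gm43028, Hmgb1-ps8 and Zfp389, against 1.24% of all 14646 genes. That comparison is not at like levels, since 10885 of the 14646 genes but 17 of the 52 members averaged at least 20. Gm42164 was at 0 in 14 ovaries and at 10 or more in 6. In 5 mice both ovaries were at 0 and in 4 mice 1 of them. The 3 zeros of Hmgb1-ps8 were all in left ovaries of control mice, and each of those mice had 2.02 to 5.17 on the right. For Zfp389, whose best match was the zinc finger gene Zfp113, 1 mouse had 0 on both sides and 1 mouse had 0 on the right alone. At these levels most ovaries between the extremes lie near the 3 read floor, so on and off are not sharply divided in Hmgb1-ps8 and Zfp389.

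The main question of the study was what DSS before puberty leaves in the adult ovary. No member passed the test. For DSS against control, with both ovaries averaged per mouse, limma called 0 of 52 members (0.0% of all genes tested), and 3 members had an unadjusted p under 0.05, against 7.98% of all genes. edgeR called 0 members (0.041% of all genes), with 4 at an unadjusted p under 0.05 (8.27% of all genes). DESeq2 called 0 (0.355%), with 3 at an unadjusted p under 0.05 (7.61%). Of the members, 31 were higher and 21 lower in DSS mice, with a median log2 difference of 0.06, against 0.00 over all genes. The log2 difference was between -0.25 and 0.25 in 40 members. Over the members with a ribosomal protein parent the median was 0.02, with 20 higher and 17 lower, and over the 15 others it was 0.27, with 11 higher and 4 lower. Among the 11, Gm11652, Gm14239 and Zfp389 reached the limit of 5 only through DSS mice, so the rule favoured their direction. Among the 4, Gm42164 reached it only through control mice. The summed level of 4 transcripts that follow RNA handling (mt-Rnr2, mt-Rnr1, Gm42418 and Malat1) moved with DSS, with mouse means of 165566 to 331008 (median 249094) in DSS and 110636 to 202958 (median 157086) in control mice. The groups overlapped, none of the 4 was at 0 in all ovaries, and their part in these differences was not tested.

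The largest members were measured best. RP23-58B7.2 averaged 4686 ± 341 over DSS mice and 4838 ± 291.5 over control mice (SD of mouse means, n = 7 and 8), and its parent Rps15 differed by the same log2 -0.05. Gm8292 was at 884 ± 101 and 928 ± 94.5. These differences were smaller than the spread between mice. Rpl10a-ps1 was lower in DSS mice by a log2 difference of -0.16 (SE 0.09), with an adjusted p of 0.681 by limma.

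The smallest p among the members was that of Gm11652, a copy of Bzw1 inside Tanc2 on the same strand. Its mouse means lay between 5.22 and 13.1 (median 9.08) in DSS mice and between 1.95 and 7.66 (median 3.85) in control mice. The groups overlapped, and all 7 DSS mice were above the control median. The log2 difference was 1.01 (SE 0.25, adjusted p = 0.262, limma), and it was 0.67 (SE 0.52) in left and 1.22 (SE 0.32) in right ovaries. Bzw1 differed by -0.00 and Tanc2 by 0.00. Gm11652 reached the limit of 5 only through the DSS mice, with means of 9.48 in DSS and 4.39 in control mice, as did Gm14239 and Zfp389. Over the alternatives its adjusted p ran from 0.0687 to 0.688.

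RP23-6C18.3, the fragment of mt-Nd2, had mouse means of 6.73 to 22.3 (median 15.9) in DSS mice and 3.68 to 15.14 (median 9.13) in control mice. Gm11410, the copy of mt-Cytb, had 4.83 to 7.09 (median 6.29) and 4.79 to 13.23 (median 8.40). Both pairs of groups overlapped. The log2 differences were 0.69 (adjusted p = 0.565, limma) and -0.39 (0.615), while mt-Nd2 differed by 0.09 and mt-Cytb by -0.05. Among the other members named by p, Gm14239 (0.67), Zfp389 (0.65) and Gm13423 (0.21) were higher in DSS mice and Gm12311, a copy of Rpl26 (-0.32), Rpl17-ps1 (-0.32) and Gm42164 (-1.09) were lower, with adjusted p of 0.648 to 0.782 by limma. Gm42164 reached the limit of 5 only through the control mice, with means of 4.74 in DSS and 5.45 in control mice.

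Between the sides 3 of 52 members passed the test, against 10.2% of all genes (limma, mouse as a block), and 9 had an unadjusted p under 0.05, against 23.7%. edgeR called 2 (10.1% of all genes), with 8 at an unadjusted p under 0.05 (23.3%). Of the 3, Hmgb1-ps8 and Gm42164 reached the limit of 5 only through 1 side, with means of 4.58 on the left and 7.22 on the right for Hmgb1-ps8 and of 9.33 and 0.908 for Gm42164. The rule thus favoured a difference in them, and their tests support nothing. The third was RP24-550H10.4, the Rpl35a copy antisense to Ccar1. Its left ovaries held 70.3 to 121 (median 92.0) in DSS mice and 77.6 to 115 (median 104) in control mice. Its right ovaries held 63.4 to 86.4 (median 70.0) and 59.96 to 92.7 (median 78.3). The left ovary was higher in 6 of 7 DSS mice and 7 of 8 control mice, and the ranges of the sides overlapped. The left minus right log2 difference was 0.41 (SE 0.08, adjusted p = 0.00294), that of Rpl35a was 0.12 (adjusted p = 0.0254) and that of Ccar1 was 0.03 (adjusted p = 0.754). The call held under all 23 alternatives, with adjusted p of 0.000721 to 0.0146. The other Rpl35a copies differed by 0.10 (Rpl35a-ps4), -0.12 (Gm15268) and -0.15 (Gm11510), none of which passed.

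Hmgb1-ps8, which lies inside Gm26740 on the same strand (mean 14.3), was lower on the left. Left ovaries held 1.14 to 10.7 (median 4.76) in DSS mice and 0 to 7.83 (median 3.59) in control mice, and right ovaries held 3.38 to 15.9 (median 6.62) and 2.02 to 12.99 (median 5.69). The right ovary was higher in 5 of 7 DSS and 7 of 8 control mice. The log2 difference was -0.83 (SE 0.24, adjusted p = 0.0347, limma), and that of Hmgb1 was -0.11 (adjusted p = 0.168). Gm26740 averaged 12.5 on the left and 16.1 on the right, was higher on the right in 4 of 7 DSS and 6 of 8 control mice, and had a log2 difference of -0.49 (SE 0.19, adjusted p = 0.112, limma). Its part in the difference of Hmgb1-ps8 was not tested. The call was lost without any of 8 mice (DSS_13.2, DSS_15.1, DSS_16.3, control_10.5, control_10.6, control_13.5, control_15.3 and control_15.4), where the adjusted p reached 0.0639. Over all alternatives it ran from 0.0179 to 0.18.

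Gm42164 was higher on the left, and it was high in the ovaries where Smr2 was high. Control left ovaries held 0 to 21.2 (median 12.1) of Gm42164 and 1.09 to 23.9 (median 13.6) of Smr2, and control right ovaries held 0 to 1.25 and 0 to 1.75. Among DSS ovaries the left ovary of DSS_16.3 stood apart with 52.2 of Gm42164 and 60.2 of Smr2, and the others held 0 to 5.59 of Gm42164. The left minus right log2 difference was 1.49 (SE 0.44, adjusted p = 0.0334, limma) for Gm42164 and 1.62 (adjusted p = 0.0357) for Smr2. The call of Gm42164 was lost without any of 7 mice (DSS_16.3, control_10.5, control_10.6, control_11.4, control_13.4, control_15.3 and control_16.9), where the adjusted p reached 0.073. Over all alternatives it ran from 0.00138 to 0.124.

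Markers of stratified epithelium, like Gm42164, had a higher median in control left than in control right ovaries. The summed level of the 6 markers (Krt4, Krt5, Krt14, Krt13, Sprr1a and Krtdap) was 334.02 to 5748 (median 1680.0) in control left and 69.3 to 549 (median 314) in control right ovaries. In DSS mice it was 124 to 6305 (median 265) on the left and 36.7 to 865 (median 61.3) on the right, with 6305 in the left ovary of DSS_16.3. Gm42164 was at 0 in 4 of 7 DSS left and 4 of 7 DSS right ovaries. No marker was at 0 in all ovaries. Their part in the result was not tested.

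**Figure D3:**
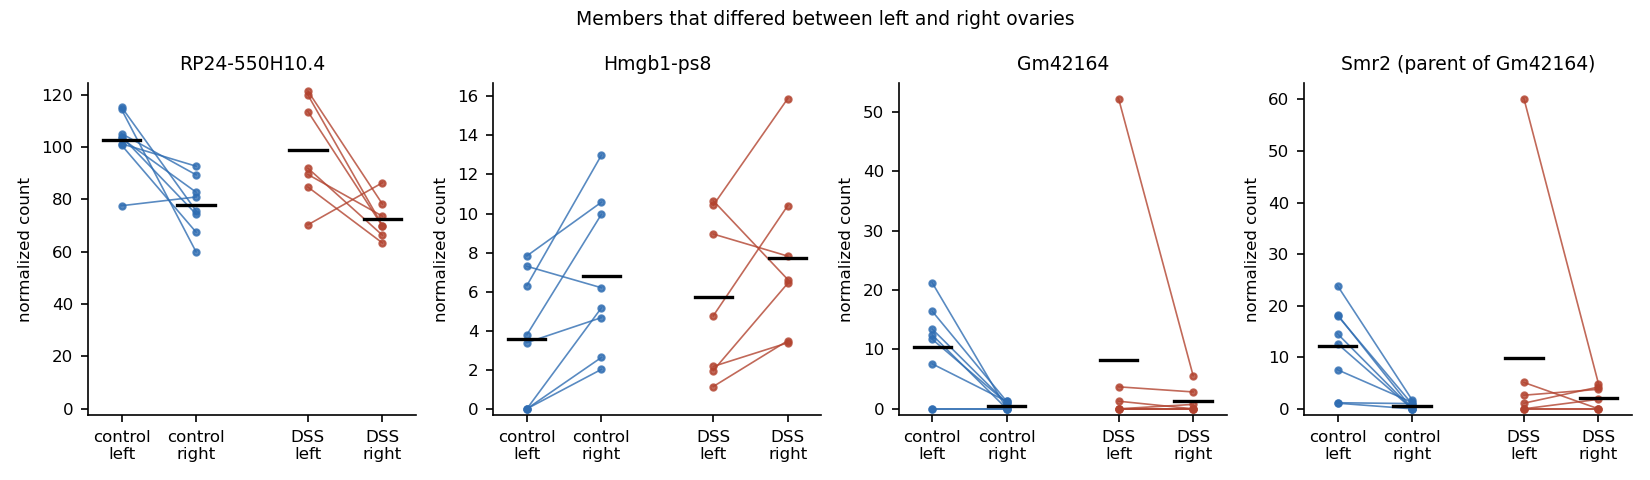
Normalized counts of RP24-550H10.4, Hmgb1-ps8, Gm42164 and its parent Smr2 in the left and right ovary of each mouse (lines join the ovaries of a mouse, black bars are group means). RP24-550H10.4 is higher on the left in 13 of 15 mice, and Gm42164 and Smr2 share their high ovaries, up to 52.2 and 60.2 in the same left ovary of a DSS mouse.

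The DSS difference itself was compared between sides. limma on the left minus right differences called 0 of 52 members (0.0% of all genes), and 6 members had an unadjusted p under 0.05, against 8.52% of all genes. edgeR called 1 member, Gm43028 (0.00683% of all genes), and 6 members had an unadjusted p under 0.05 (8.47%).

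Gm43028 held 0 to 6.86 (median 2.60) in DSS left and 0.7 to 29.98 (median 18.6) in DSS right ovaries. It held 0 to 32.6 (median 15.9) in control left and 0 to 4.03 (median 1.94) in control right ovaries. All ovaries at 10 or more were 5 of 7 DSS right and 6 of 8 control left ovaries. The right ovary was higher in 6 of 7 DSS mice and the left in 6 of 8 control mice. The ranges of all 4 groups overlapped near 0. Its means were 2.97 in DSS left and 2.14 in control right ovaries, so it reached the limit of 5 only through DSS right and control left ovaries. The rule thus favoured a difference of the DSS effect between sides in Gm43028, and its tests below support nothing. DSS against control was -1.64 (SE 0.70) on the log2 scale in left and 2.09 (SE 0.56) in right ovaries. The difference of the differences was -3.74 (SE 0.62, adjusted p = 0.103, limma), and edgeR gave -5.12 (adjusted p = 0.000332), its only call among 14646 genes. limma called it without DSS_11.2 (adjusted p = 0.016), control_10.5 (0.0236) or control_16.9 (0.0296), and the adjusted p over the alternatives ran from 0.000332 to 0.454. Without the 6 mice that had an ovary above 5000 of Ovgp1 it was -4.68 (adjusted p = 0.000934).

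Rpl21-ps5 lies on another chromosome, and its group medians had the same order. The rule favoured that order in Gm43028, so the likeness of the 2 copies supports nothing. Rpl21-ps5 held 0.98 to 144 (median 23.8) in DSS left and 11.01 to 183 (median 117) in DSS right ovaries. It held 6.62 to 209 (median 107) in control left and 0 to 132 (median 8.18) in control right ovaries. The right ovary was higher in 5 of 7 DSS mice and the left in 7 of 8 control mice, with every range overlapping. DSS against control was -2.08 (SE 0.89) in left and 2.97 (SE 0.90) in right ovaries, and the difference of these was -5.05 (SE 0.96, adjusted p = 0.278, limma). Without DSS_11.2 it was -5.57 (adjusted p = 0.0206), the only mouse whose removal gave a call, and over the alternatives the adjusted p ran from 0.0206 to 0.767. Rpl21 had -0.06 (adjusted p = 0.874) in the same test.

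The other Rpl21 copies did not follow these. The difference of the differences was 0.10 for Gm10240, 0.34 for Gm16416 and -0.16 for Gm5445. It was -0.11 for Gm12760, -0.05 for Gm11281 and -0.02 for RP23-65J2.1. Gm10240 had 137 to 213 (median 175) in DSS left, 139 to 249.2 (median 156) in DSS right, 95.5 to 273.1 (median 187) in control left and 129 to 269 (median 193) in control right ovaries. Gm13641, another Rpl21 copy, had the opposite sign, 1.39 (SE 0.53, adjusted p = 0.542, limma). The Rps7 fragment Gm44261 had -1.81 (SE 0.71, adjusted p = 0.542), the Rpl17 copy Gm15795 had 1.03 (SE 0.46, adjusted p = 0.568) and Gm15644, a copy of Pin4 inside Gng12, had 0.93 (SE 0.47, adjusted p = 0.607). Gm42164 had -1.80 (SE 0.79, adjusted p = 0.568). Gm13641, Gm15644 and Gm42164 averaged 5.55, 5.67 and 5.12, close to the limit of 5. The rule may thus have favoured a difference between groups in these members, and their tests here support nothing. The first number in the sample titles is odd for left and even for right ovaries, and what it stands for is not given in the sources used here.

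**Figure D4:**
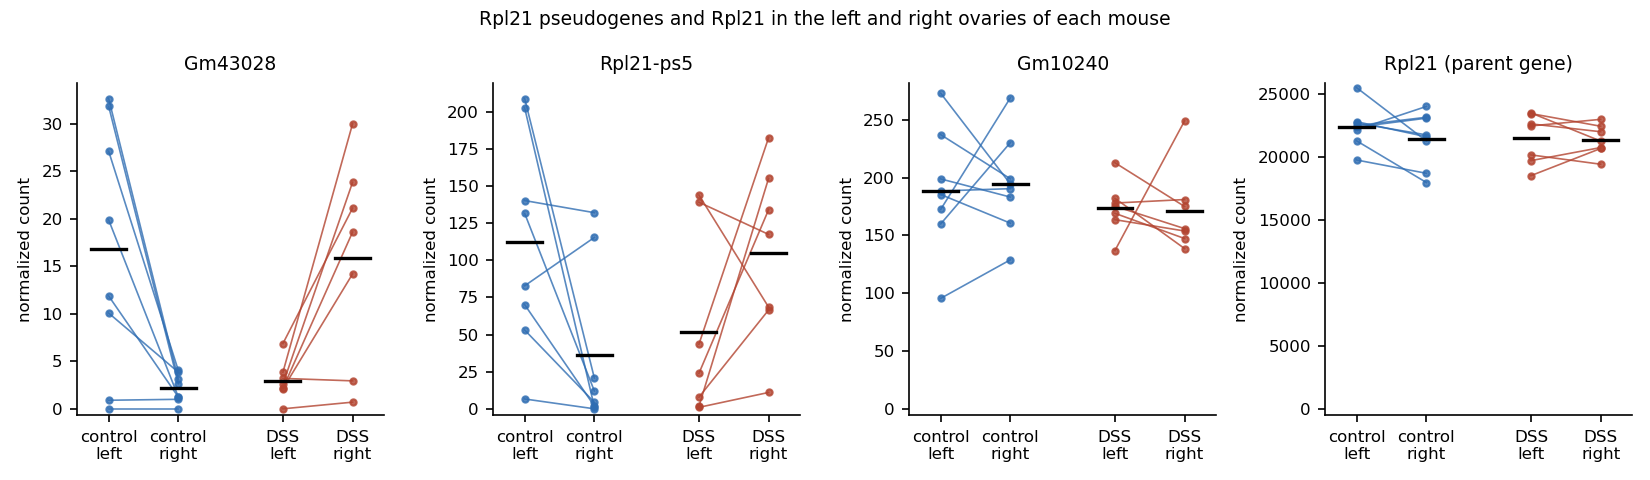
Normalized counts of the Rpl21 copies Gm43028, Rpl21-ps5 and Gm10240 and of Rpl21 in the left and right ovary of each mouse (lines join the ovaries of a mouse, black bars are group means). Gm43028 is at 10 or more in control left and DSS right ovaries alone, Rpl21-ps5 runs from 0 to 209 with the same order of group means, and Rpl21 stays between 17993 and 25535.

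**Figure D5:**
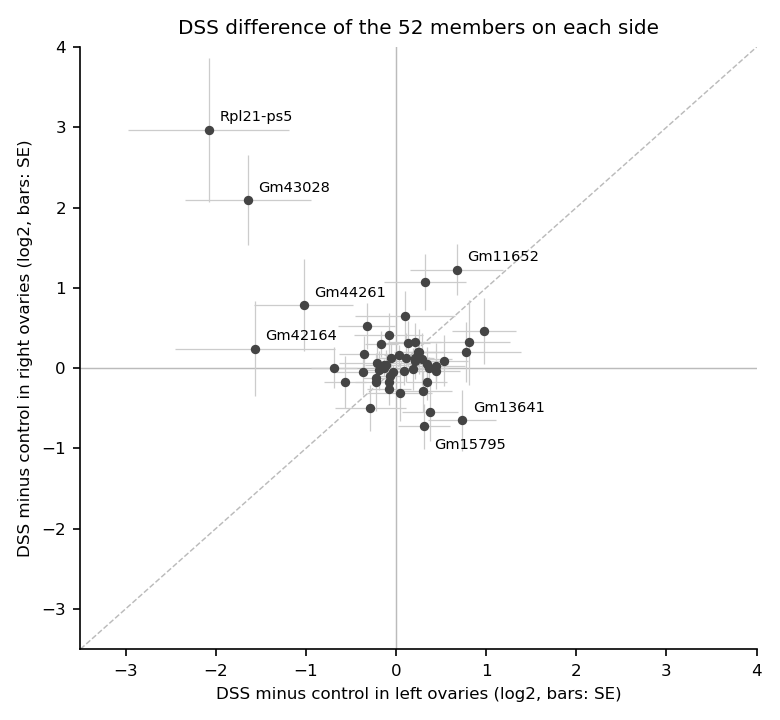
DSS minus control log2 difference of each of the 52 members in left ovaries (horizontal axis) and right ovaries (vertical axis), with bars for SE and a dashed line of equality. Rpl21-ps5 (-2.08 and 2.97) and Gm43028 (-1.64 and 2.09) lie farthest from the line, and most members lie near 0 on both axes.

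Whether the ovaries of a mouse share a level was tested with an F test over mice of the same group. limma called 0 of 52 members (1.04% of all genes), and 5 members had an unadjusted p under 0.05, against 12.9% of all genes. edgeR called 1 member, Gm42164 (adjusted p = 0.0367, and up to 0.671 over the alternatives), against 1.03% of all genes, with 4 members at an unadjusted p under 0.05 (14.0%). The smallest p by limma was that of Hmgb1-ps8 (F = 4.09, adjusted p = 0.123), which passed only when DSS_11.2 was left out (adjusted p = 0.0481). Next were Gm20699 (F = 3.53, adjusted p = 0.177), a row that has no entry in GENCODE M21, and Gm14021 (F = 2.51, adjusted p = 0.326). Gm20699 ran from 7.95 to 32.0 over the ovaries. Gm43028 and Rpl21-ps5 had adjusted p of 0.559 and 0.564 in this test.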

How the data were processed

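Ovaries of 7 DSS and 8 control mice were profiled by CEL-Seq. The authors deposited a non-negative signal, normalized counts to 2 decimals, which per the file headers is 1 column per ovary and 0 other columns were left unused. The build GRCm38.p5 and the tools DESeq2, HTSeq and TopHat are named in the submitters' processing notes. Versions, strand setting, handling of reads with several matches and of molecular identifiers are not given in the sources used here. Whole reads were recovered from the steps of each library for 99.989% to 100% of values, within 0.0051.

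Genes averaging 5 or more (14646) were tested on log2(value + 1) with limma 3.58.1 (R 4.3.3; two-sided, with a mean-variance trend, Benjamini-Hochberg over all genes, threshold 0.05), which understates changes of low genes. The mouse was the replicate. The labels give the left and right ovary of each mouse, which paired them for left against right. edgeR 4.0.16 and DESeq2 1.42.0 were run on recovered reads as alternatives. Parents by alignment came from blastn 2.17.0 against GENCODE M21 protein-coding transcripts (at least 50% of the member covered and at least 1 exon junction crossed, otherwise the best hit), and Sept2, listed under a date-like name, was matched by identifier.

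Named members were the 10 highest, the 3 on each side of the limit, the on-off members, the 10 with the smallest p between mice, 5 per direction for DSS, 3 per direction between sides, up to 5 past the threshold for left against right and those whose symbol names a parent. Gm42164 under DSS by side, the shared values of Frmd5, Msi2, Zbtb20, Col4a5, Pkhd1, Tanc2, Ccar1 and Gm26740 and the remaining Rpl21, Rpl35a, Rps7, Rps24, Rpl6 and Rpl17 copies were named after their values were seen. The members and lists were chosen with earlier results of these data known. Alternatives changed the pseudocount, filter, scaling, tool, block and mice.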

Additional observations from a re-analysis of the deposited data

Results flagged for a closer look

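For 31 named members the 4 groups of 7 or 8 ovaries were each checked for an ovary far from the rest. Of 124 groups, 12 had one. About 1 in 20 would be marked if values were normally distributed. These values are counts, and some members were named for their spread, so the check cannot show an excess over chance. The highest ovary stood apart for Gm42164 in DSS left ovaries, with 52.22 in DSS_16.3 against 3.7 in the next, an ovary where Smr2 and the stratified epithelium markers were also highest. The Rps24 copy Gm8292 reached 1178.28 in control_13.5 left against 997 in the next, and Rpl10a-ps1 reached 344.42 in DSS_13.2 right against 228. The Rpl21 copy Gm10240 reached 249.21 in DSS_10.3 right against 181, and Rpl23a-ps2 reached 22.82 in DSS_10.3 left against 12.8. Rpl17-ps1 had a high left ovary in both groups, 19.59 in DSS_15.1 and 16.32 in control_13.5. RP23-6C18.3 reached 15.31 in control_15.4 left against 8.21, and Gm20699 reached 25 in control_13.4 right against 16.6.

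The lowest ovary stood apart for RP24-550H10.4 in control_10.6 left, with 77.61 against 101 in the next, and for Rps12l1 in DSS_11.2 left, with 41.58 against 47.7. Gm15644 was at 3.41 in DSS_16.3 left against 6.39 in the next. The left ovary of DSS_11.2 is also the ovary with the lowest sum of ovarian markers.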

How the results depend on the processing

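The count of members called for DSS against control was 0 under all 27 alternatives. Of the values of single members 259 kept direction and side of the threshold, and 2 changed sign in right ovaries alone, where Gm12311 was at 0.0075 and Gm42164 at 0.24; the cause was not tested. For left against right, without each mouse in turn, 1 to 4 members were called in place of 3. With no replicate block, that is without pairing the ovaries of a mouse, 1 member was called, RP24-550H10.4, and the adjusted p was 0.0972 for Gm42164 and 0.18 for Hmgb1-ps8. edgeR with the replicate block called 2. For DSS by side, 0 to 2 members were called without each mouse in turn, 1 without the ovaries over 5000 of Ovgp1 and 1 by edgeR with the replicate block. For mouse to mouse, 0 to 1 members were called without each mouse in turn and 1 by edgeR. A mean of at least 10 left 28 members and a mean of at least 2 gave 118. A run of at least 15 A was found in 1 member in place of 3. The on-off pattern was met by 4 or 5 members under its alternatives. Members under 10 rest on few reads per ovary, and at this depth small differences in them were not detectable.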
